A study of Mus musculus with 8 samples.

Results

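The 10 genes described here mark spliced mRNAs for surveillance or carry out their decay from the 5′ end, and were followed in precursor B cells with and without a targeted *Upf1* gene. They were listed by symbol after what their proteins are known to do, at a time when earlier results of these data were known, and no measured value entered the rule. They comprise the exon junction complex (EJC) core genes *Eif4a3*, *Magoh*, *Magohb*, *Rbm8a* and *Casc3*, the peripheral EJC gene *Rnps1*, the decapping genes *Pnrc2*, *Dcp1a* and *Dcp2*, and the 5′-to-3′ exonuclease gene *Xrn1*. All 10 were found among the 27179 genes of the count table, and all 10 passed the expression filter with which 17700 genes were tested. RNA was sequenced from early large pre-B (early LPre-B) and small pre-B (sPre-B) cells sorted from mouse bone marrow, with 2 libraries in each of 4 groups. The genotype at *Upf1* was Flox/Flox in all 4 groups, and all 4 were *Igh* B1-8hi/+. At *Mb1* the 2 groups labelled cKO were Cre/+ and the 2 groups labelled Ctrl were +/+. Ctrl cells therefore also carried the floxed *Upf1* alleles and the B1-8hi knock-in, a rearranged heavy chain gene present before recombination would occur. Cre was driven from *Mb1*, the *Cd79a* locus, which is expressed in the B lineage, so that the cells labelled cKO also had 1 *Cd79a* allele interrupted. The mice were 8 to 16 weeks old and of both sexes.

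UPF1 is the RNA helicase at the centre of nonsense-mediated mRNA decay (NMD). During splicing the EJC is placed upstream of exon-exon junctions, and an EJC that remains downstream of a stop codon after translation ends draws UPF proteins to the mRNA. Phosphorylated UPF1 then recruits decay factors, among them PNRC2, which bridges UPF1 to the decapping protein DCP1A. DCP2 removes the cap, and XRN1 degrades the uncapped RNA. Early LPre-B cells are large and cycling, while sPre-B cells are small, have left the cycle and rearrange their light chain genes.

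The levels below are CPM, counts scaled to library size by TMM factors in edgeR, and Log2FC is a difference between group means on the log2 scale. All adjusted P values come from edgeR's two-sided quasi-likelihood test with Benjamini-Hochberg adjustment over the 17700 genes, and a gene was called at an adjusted P under 0.05. Totals lay between 68516857 and 160426338 counts per library, at which 3 counts correspond to 0.0217 to 0.0426 CPM. The study's methods call its data points independent biological replicates, and the labels do not tie the 8 libraries to mice. *Upf1* itself measured 237 and 213 CPM (early LPre-B) and 186 and 198 CPM (sPre-B) with the Ctrl label, and 244 and 258 CPM and 282 and 293 CPM with the cKO label. Its counts cover the whole gene and not only the deleted exons, no library labelled cKO fell below either Ctrl library of the same stage, and they do not check the label. *Cd79a* was lower in both stages labelled cKO, with a Log2FC of −1.77 (SE 0.16, adjusted P = 0.000157) and −2.08 (SE 0.16, adjusted P = 7.05e-05). The 11 B lineage markers, *Cd79a* among them, summed to 2930 to 3214 CPM in Ctrl and 1910 to 1954 CPM in cKO early LPre-B libraries, and to 9176 to 9364 CPM in Ctrl and 5848 to 6247 CPM in cKO sPre-B libraries. They were thus lower with the cKO label at both stages, and the part of this in the genotype differences was not tested. The 6 myeloid markers summed to 23.7 to 36.7 CPM (Ctrl) and 14.4 to 19.6 CPM (cKO) in early LPre-B libraries and to 75.7 to 92.7 CPM and 31.1 to 66.6 CPM in sPre-B libraries, and the 5 erythroid markers to 14.6 to 19.6 CPM and 9.33 to 12.7 CPM, and to 22.3 to 26.9 CPM and 12.2 to 18.2 CPM. The 4 T cell markers summed to 0.593 to 1.13 CPM at the early LPre-B stage and 1.17 to 1.6 CPM at the sPre-B stage. The sort took cells negative for a lineage stain of CD3e, CD11b, CD11c, F4/80 and TER-119. The part of these 3 marker sets in the differences between stages and genotypes was not tested. Likewise, the part of the 3 plasma cell markers was not tested, whose sum was 69.8 to 109 CPM in Ctrl and 35.6 to 59.1 CPM in libraries labelled cKO, nor that of the 2 NK cell markers, with 3.02 to 3.31 CPM in Ctrl early LPre-B and 0.241 to 0.799 CPM elsewhere. Most of the plasma cell sum was *Sdc1*, with 30.2 to 90.6 CPM over the 8 libraries, beside 0.836 to 15.7 CPM of *Prdm1* and 0.115 to 2.32 CPM of *Jchain*. All 31 markers had a count in at least 1 library. The 2 Ctrl libraries numbered 2 held 151 and 304 counts of *Xist* and 19733 to 28205 counts of 4 Y-linked genes, where the other 6 libraries held 290740 to 513937 and 5 to 34. The 2 Ctrl libraries of each stage therefore came from mice of different sex, and their spread includes that between animals, while the libraries labelled cKO all carry the female pattern. For this reason results that compare Ctrl with cKO are also given without the Ctrl libraries numbered 2 where a call changed.

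*Magoh* and *Magohb* encode nearly the same EJC protein, which binds RBM8A, and both are shown because a count can be given to either only where their transcripts differ. Both stretches are coding bases from the start codon (*Magoh* bases 1 to 120) or the matching codon (*Magohb* bases 7 to 126) in GENCODE M21 on GRCm38, each joined from 2 exons, with the 28 bases that differ in capitals. *Magoh* lies at chr4:107879858-107880924 on the plus strand over this stretch and *Magohb* at chr6:131289416-131293159 on the minus strand.
Magoh: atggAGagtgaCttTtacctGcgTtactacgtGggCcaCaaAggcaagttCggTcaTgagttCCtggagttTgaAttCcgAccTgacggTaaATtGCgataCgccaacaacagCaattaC
Magohb: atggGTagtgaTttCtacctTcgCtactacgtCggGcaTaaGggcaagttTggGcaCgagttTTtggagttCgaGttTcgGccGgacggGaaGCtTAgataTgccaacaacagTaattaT
Over 438 aligned coding bases, 82 differed, an identity of 81.3%. The longest run that the 2 transcripts share was 17 bases, and of the 25-base windows 0 of 668 in *Magoh* and 0 of 743 in *Magohb* occurred in the other transcript. Reads of that length or longer that match exactly can therefore be told apart between this pair.

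Other genes near or alike could take counts from the remaining members. The retrogene *Eif4a3l1* had 1 to 8 counts per library, while *Eif4a3* had 4411 to 22850. *Gm12359* overlaps *Casc3* over 282 bases and had 2291 to 3824 counts, against 7827 to 16430 for *Casc3*. *Cacna1d* overlaps *Dcp1a* over 11671 bases of the genome and had 211 to 582 counts, against 7181 to 13183 for *Dcp1a*. *Gm16794* overlaps *Xrn1* over 8498 bases and had 726 to 2119 counts, against 8621 to 20829 for *Xrn1*. The alignment is described as unstranded, and whether strand was used in counting is not given. The shared bases are of whole gene spans and not of exons. How far the overlaps alter the values of *Casc3*, *Dcp1a* and *Xrn1* was therefore not tested. Pseudogenes of *Eif4a3*, *Rbm8a* and *Rnps1* are not in the count table.

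The genes lie apart from each other in the genome (GRCm38, GENCODE M21, main transcript). *Eif4a3* has 12 exons at chr11:119288363-119300089 on the minus strand, and *Casc3* 15 exons at chr11:98804905-98833814 on the plus strand. *Magoh* has 5 exons at chr4:107879755-107887424 on the plus strand, and *Pnrc2* 3 exons at chr4:135870918-135873850 on the minus strand. *Magohb* has 5 exons at chr6:131284388-131293244 on the minus strand. *Rbm8a* has 6 exons at chr3:96629933-96633791, *Rnps1* 9 exons at chr17:24414565-24425901, *Dcp1a* 10 exons at chr14:30479535-30527063 and *Xrn1* 42 exons at chr9:95954760-96057803, all on the plus strand. *Dcp2* has 11 exons.

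Features linked to NMD were read from the same annotation. A splice junction after the stop codon was found in the main transcript of 1 member, *Casc3*, and, at any distance, in 4.24% of the 14242 protein-coding genes tested that could be matched to it. In *Casc3* the junction lies 42 bases past the stop, short of the 50 bases or more usually needed for NMD. A junction more than 50 bases past the stop was found in 0 members and in 0.372% of those genes. At that share 0 is no result about the members. Transcripts classed by GENCODE as subject to NMD were annotated for *Magohb* (3 of 7 transcripts) and *Dcp1a* (2 of 18), and for 27.2% of those genes. The 3′ untranslated region was longest in *Dcp2* with 7240 bases, followed by *Dcp1a* with 3757, *Rbm8a* with 2057, *Casc3* with 1596 and *Pnrc2* with 1096, which are the 5 members above the median of 940 bases. It had 710 bases in *Rnps1*, 241 in *Magohb*, 218 in *Xrn1*, 180 in *Eif4a3* and 148 in *Magoh*. Counts per gene do not separate these transcripts.

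RefSeq promoters (GRCm38.p6) were matched for 6 members. The 250 bases before the start site are shown for *Eif4a3* and *Magoh*, which were lower in sPre-B cells, and for *Pnrc2*, which was higher there, with matches to CCAAT, the letters of the box bound by NF-Y, in capitals on either strand.
Eif4a3 (chr11:119300044-119300293, minus strand): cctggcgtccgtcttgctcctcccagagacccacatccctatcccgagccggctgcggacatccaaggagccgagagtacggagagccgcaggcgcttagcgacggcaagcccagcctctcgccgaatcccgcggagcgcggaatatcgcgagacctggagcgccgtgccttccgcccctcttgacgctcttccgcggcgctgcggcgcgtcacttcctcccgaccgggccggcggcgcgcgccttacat
Magoh (chr4:107879505-107879754, plus strand): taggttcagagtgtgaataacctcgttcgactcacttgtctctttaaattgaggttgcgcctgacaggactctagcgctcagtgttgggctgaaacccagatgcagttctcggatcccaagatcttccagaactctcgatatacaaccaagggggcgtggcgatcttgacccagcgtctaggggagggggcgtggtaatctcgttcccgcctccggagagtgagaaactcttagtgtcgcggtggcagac
Pnrc2 (chr4:135873847-135874096, minus strand): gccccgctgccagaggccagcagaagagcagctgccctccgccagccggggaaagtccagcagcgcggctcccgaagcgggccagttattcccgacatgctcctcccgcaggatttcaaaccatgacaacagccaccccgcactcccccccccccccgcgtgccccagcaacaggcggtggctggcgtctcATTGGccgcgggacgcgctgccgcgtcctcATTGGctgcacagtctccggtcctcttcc
CCAAT was found within 250 bases before to 50 bases after the start of *Pnrc2* and *Magohb*, and in 37.41% of the 32851 promoters of the table. The E-box letters CACGTG, present in 7.15% of promoters, the TATA letters TATAAA, present in 13.62%, and the E2F letters TTTCCCGC, TTTGGCGC and TTTCGCGC, present in 1.07%, 0.51% and 0.32%, were found in 0 of the 6. All were searched on both strands. The 3 E2F forms share their opening letters, and CACGTG reads the same on either strand. G and C made up between 48.3% (*Magohb*) and 68.7% (*Eif4a3*) of the 6 promoters, against a median of 52.7%.

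The EJC core genes other than *Casc3* were lower in sPre-B than in early LPre-B cells, whatever the *Upf1* label. *Eif4a3*, the RNA helicase that clamps the complex on the RNA, was measured in replicates 1 and 2 of Ctrl at 165 and 143 CPM for early LPre-B and at 68.4 and 62.6 CPM for sPre-B. The same values were 118 and 121 CPM and 57.6 and 61.0 CPM for the libraries labelled cKO. Every early LPre-B library was above every sPre-B library, and the Ctrl early LPre-B libraries were the highest of all. The Log2FC between the stages was −1.24 (SE 0.10, adjusted P = 1.2e-05) in Ctrl and −1.01 (SE 0.10, adjusted P = 3.59e-05) in cKO, a level 2.36 and 2.01 times as high in early LPre-B cells.

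*Magoh* had the widest range of the 10 genes, with group means that spanned 1.82 on the log2 scale. Early LPre-B libraries held 58.1 and 47.4 CPM (Ctrl) and 37.5 and 37.9 CPM (cKO), and sPre-B libraries 19.2 and 15.2 CPM (Ctrl) and 14.7 and 15.2 CPM (cKO). The sPre-B levels of the 2 genotypes lay next to each other, whereas the stages stood apart. Its Log2FC between the stages was −1.62 (SE 0.14, adjusted P = 2.24e-05) in Ctrl and −1.34 (SE 0.14, adjusted P = 6.23e-05) in cKO. *Magohb* was at 8.0 and 8.2 CPM in Ctrl and 7.8 and 7.9 CPM in cKO early LPre-B cells, and at 3.8 and 3.7 CPM in Ctrl and 4.5 and 4.2 CPM in cKO sPre-B cells. It thus followed the stage, with a Log2FC of −1.09 (SE 0.14, adjusted P = 0.000212) in Ctrl and −0.84 (SE 0.14, adjusted P = 0.000861) in cKO.

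*Rbm8a*, whose protein pairs with MAGOH, held 71.0 and 64.7 CPM (Ctrl) and 61.7 and 61.2 CPM (cKO) at the early LPre-B stage. At the sPre-B stage it held 39.1 and 38.2 CPM (Ctrl) and 40.7 and 42.0 CPM (cKO). The stages did not overlap, and the Log2FC was −0.81 (SE 0.08, adjusted P = 5.17e-05) in Ctrl and −0.57 (SE 0.08, adjusted P = 0.000379) in cKO. *Casc3*, which joins the complex late and stabilises it, stood apart from this pattern. Ctrl libraries held 101 and 100 CPM (early LPre-B) and 108 and 116 CPM (sPre-B), and those labelled cKO 119 and 126 CPM (early LPre-B) and 123 and 126 CPM (sPre-B). Its Log2FC between the stages was 0.15 in Ctrl (95% interval −0.03 to 0.33, adjusted P = 0.141) and 0.02 in cKO (95% interval −0.16 to 0.2, adjusted P = 0.844).

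*Rnps1*, a splicing regulator bound at the edge of the complex, had 243 and 207 CPM in Ctrl and 225 and 207 CPM in cKO early LPre-B cells, and 99.4 and 93.9 CPM in Ctrl and 93.0 and 106 CPM in cKO sPre-B cells. Libraries of one stage overlapped between genotypes, and those of different stages did not. The Log2FC between the stages was −1.22 (SE 0.11, adjusted P = 2.95e-05) in Ctrl and −1.12 (SE 0.11, adjusted P = 4.73e-05) in cKO.

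The genes of decapping and 5′ decay were higher in sPre-B cells or were not called between the stages. *Pnrc2*, the adaptor between UPF1 and the decapping enzyme, was at 121 and 127 CPM (early LPre-B) and 195 and 183 CPM (sPre-B) in the Ctrl libraries. Those labelled cKO held 83.6 and 86.2 CPM (early LPre-B) and 203 and 214 CPM (sPre-B). The lowest libraries were those of early LPre-B cells labelled cKO and the highest those of sPre-B cells with the same label. *Pnrc2* rose from early LPre-B to sPre-B cells with a Log2FC of 0.61 (SE 0.09, adjusted P = 0.000324) in Ctrl and 1.30 (SE 0.09, adjusted P = 5.58e-06) in cKO, or 1.53-fold and 2.46-fold.

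*Dcp2*, the enzyme that removes the cap, held 161 and 188 CPM (Ctrl) and 108 and 130 CPM (cKO) in early LPre-B libraries, and 178 and 173 CPM (Ctrl) and 159 and 167 CPM (cKO) in sPre-B libraries. The 2 Ctrl groups overlapped, with a Log2FC of 0.01 (95% interval −0.26 to 0.28, adjusted P = 0.953), while in cKO the sPre-B level was higher by 0.46 (SE 0.12, adjusted P = 0.00896). Without cKO early LPre-B replicate 1 the latter was 0.33 with an adjusted P of 0.0739. *Dcp1a*, which activates DCP2, was the steadiest of the 10 genes, with group means that spanned 0.20 on the log2 scale. It had 95.4 and 94.6 CPM in Ctrl and 92.8 and 99.9 CPM in cKO early LPre-B cells, and 99.2 and 102 CPM in Ctrl and 85.4 and 89.5 CPM in cKO sPre-B cells. Its Log2FC between the stages was 0.08 in Ctrl (95% interval −0.10 to 0.26, adjusted P = 0.399) and −0.14 in cKO (95% interval −0.32 to 0.04, adjusted P = 0.154).

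*Xrn1* was at 85.9 and 110 CPM (early LPre-B) and 129 and 135 CPM (sPre-B) in Ctrl, and at 98.0 and 120 CPM and at 147 and 167 CPM in the corresponding libraries labelled cKO. The early LPre-B libraries of each genotype lay below its sPre-B libraries. The Log2FC was 0.43 (SE 0.14, adjusted P = 0.0284) in Ctrl and 0.52 (SE 0.14, adjusted P = 0.0114) in cKO. The call in Ctrl was lost without early LPre-B replicate 1 (0.31, adjusted P = 0.0947), sPre-B replicate 1 (0.44, adjusted P = 0.0712) or sPre-B replicate 2 (0.39, adjusted P = 0.1). The call in cKO was lost without early LPre-B replicate 1 (0.39, adjusted P = 0.0847) or sPre-B replicate 2 (0.43, adjusted P = 0.0701).

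**Figure D1:**
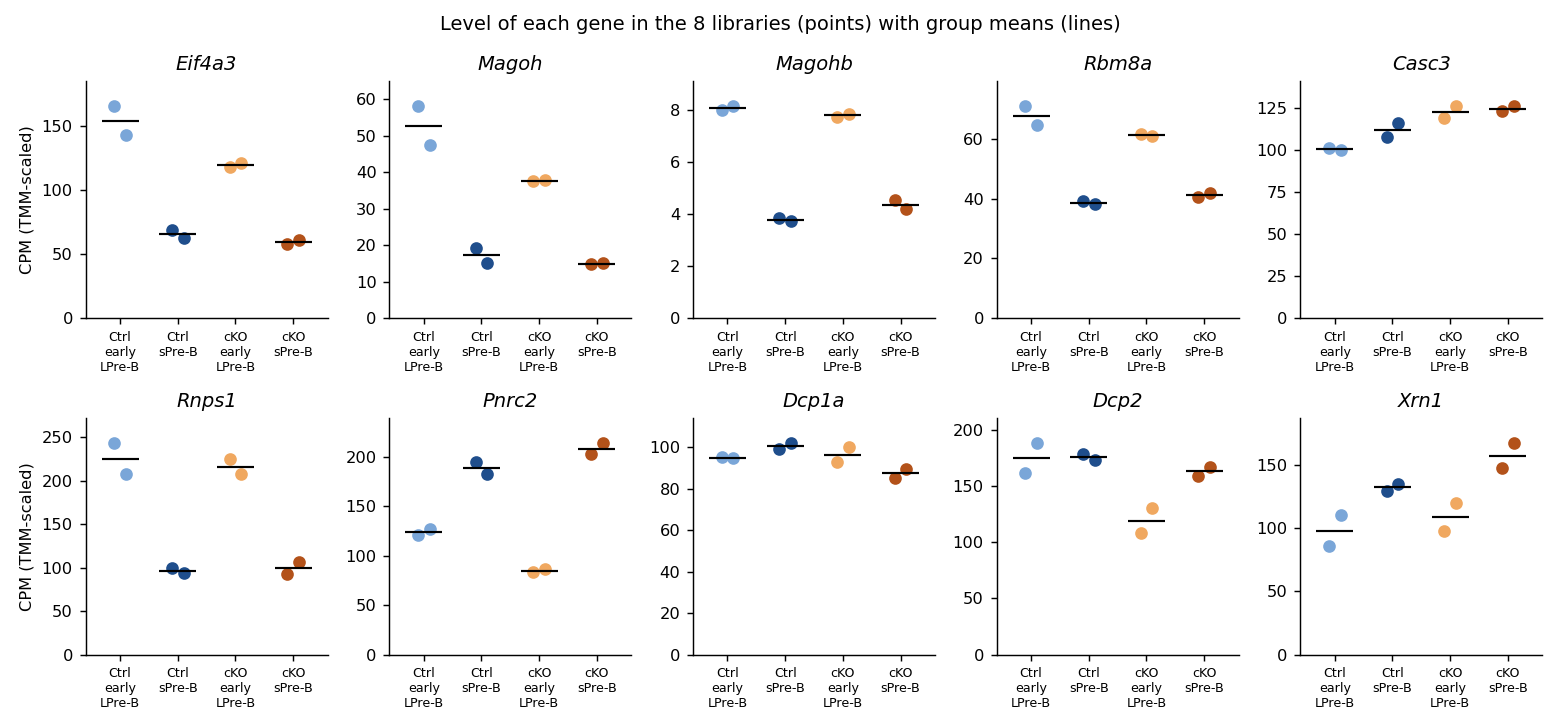
Level in CPM after TMM scaling (vertical axes from 0, scaled per gene) of the 10 genes in the 4 groups, with a point for each of the 2 libraries and a line at the group mean. *Eif4a3*, *Magoh*, *Magohb*, *Rbm8a* and *Rnps1* are lower in sPre-B cells of both genotypes, and *Pnrc2* is lowest in early LPre-B cells labelled cKO, at 83.6 and 86.2 CPM.

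Counted over the 10 genes, 5 were lower and 2 higher in sPre-B than in early LPre-B cells of Ctrl, where 31.1% of all genes tested were lower and 29.1% higher. In cKO 5 were lower and 3 higher, against 31.1% and 31.6% of all genes tested. The median Log2FC of the 10 was −0.40 in Ctrl and −0.36 in cKO, beside 0.02 and 0.05 over all genes. With library totals in place of TMM factors, which moved the latter to 0.22 and 0.13, *Casc3* (0.35, adjusted P = 0.005) and *Dcp1a* (0.28, adjusted P = 0.0119) were also called higher in Ctrl sPre-B cells. CPM are relative to the library's total, and in sorted bulk RNA a smaller share of cells of a type cannot be told apart from less of the RNA per cell.

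Whether the *Upf1* label altered the 10 genes was asked within each stage. In early LPre-B cells, 4 members were lower with the cKO label and 1 was higher, against 16.9% and 14.5% of all genes tested. *Pnrc2* and *Dcp2* each fell by 0.55 (SE 0.09, adjusted P = 0.00212, and SE 0.12, adjusted P = 0.00871), so that Ctrl levels were 1.46 and 1.47 times as high. For both genes the 2 libraries labelled cKO lay below the 2 Ctrl libraries. *Eif4a3* fell by 0.37 (SE 0.10, adjusted P = 0.0192) and *Magoh* fell by 0.48 (SE 0.14, adjusted P = 0.0289). *Casc3* rose by 0.28 (SE 0.08, adjusted P = 0.0282). The 5 members not called were *Magohb* (Log2FC −0.05, 95% interval −0.37 to 0.27), *Rbm8a* (−0.14, −0.33 to 0.05), *Rnps1* (−0.06, −0.31 to 0.20), *Dcp1a* (0.02, −0.16 to 0.20) and *Xrn1* (0.15, −0.17 to 0.48).

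*Pnrc2* was called in this comparison in all 7 alternatives with every library of the groups compared and in all 9 with fewer libraries, with Log2FC between −0.57 and −0.38. Some of these 9 leave out only sPre-B libraries, which enter this comparison only through the shared scaling and spread, and so hardly probe the call. The other calls were lost in some of the alternatives. With library totals in place of TMM factors, *Eif4a3* (−0.20, adjusted P = 0.0967), *Magoh* (−0.31, adjusted P = 0.0989) and *Dcp2* (−0.39, adjusted P = 0.0562) were not called. Without the expression filter *Casc3* had 0.29 (adjusted P = 0.0507). From only the 4 libraries compared, *Eif4a3* had −0.30 (adjusted P = 0.0663). *Dcp2* was not called without Ctrl early LPre-B replicate 2 (−0.39, adjusted P = 0.056), without both Ctrl libraries numbered 2 (−0.39, adjusted P = 0.0666) or without cKO early LPre-B replicate 1 (−0.42, adjusted P = 0.0688). *Eif4a3* and *Magoh* were not called without Ctrl early LPre-B replicate 1 (−0.23 and −0.29). They were also not called without cKO early LPre-B replicate 1 (−0.35 and −0.48) or replicate 2 (−0.39 and −0.49). *Casc3* was not called without cKO early LPre-B replicate 1 (0.33, adjusted P = 0.0694) or replicate 2 (0.24, adjusted P = 0.145).

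In sPre-B cells 0 of the 10 genes were called by edgeR's quasi-likelihood test, in either direction, against 19.8% higher and 14.9% lower of all genes tested. At an unadjusted P under 0.05 there was 1, *Dcp1a*, with a Log2FC of −0.20 (95% interval −0.38 to −0.02, adjusted P = 0.0828). DESeq2 and edgeR's likelihood-ratio test also called 0, but with median-ratio factors *Dcp1a* was called lower (−0.24, adjusted P = 0.0435). The intervals bound what these libraries allow. They reached from −0.36 to 0.08 for *Eif4a3*, from −0.53 to 0.12 for *Magoh*, from −0.12 to 0.53 for *Magohb*, from −0.09 to 0.29 for *Rbm8a*, from −0.03 to 0.34 for *Casc3* and from −0.22 to 0.29 for *Rnps1*. For *Pnrc2* the interval was −0.05 to 0.34, for *Dcp2* −0.38 to 0.16 and for *Xrn1* −0.08 to 0.57. Without both Ctrl libraries numbered 2, *Magoh* was called at −0.40 (adjusted P = 0.0271). *Dcp1a* was called at −0.24 without Ctrl early LPre-B replicate 1 (adjusted P = 0.0397) or replicate 2 (adjusted P = 0.0403), libraries that entered this comparison only through the shared scaling and spread.

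**Figure D2:**
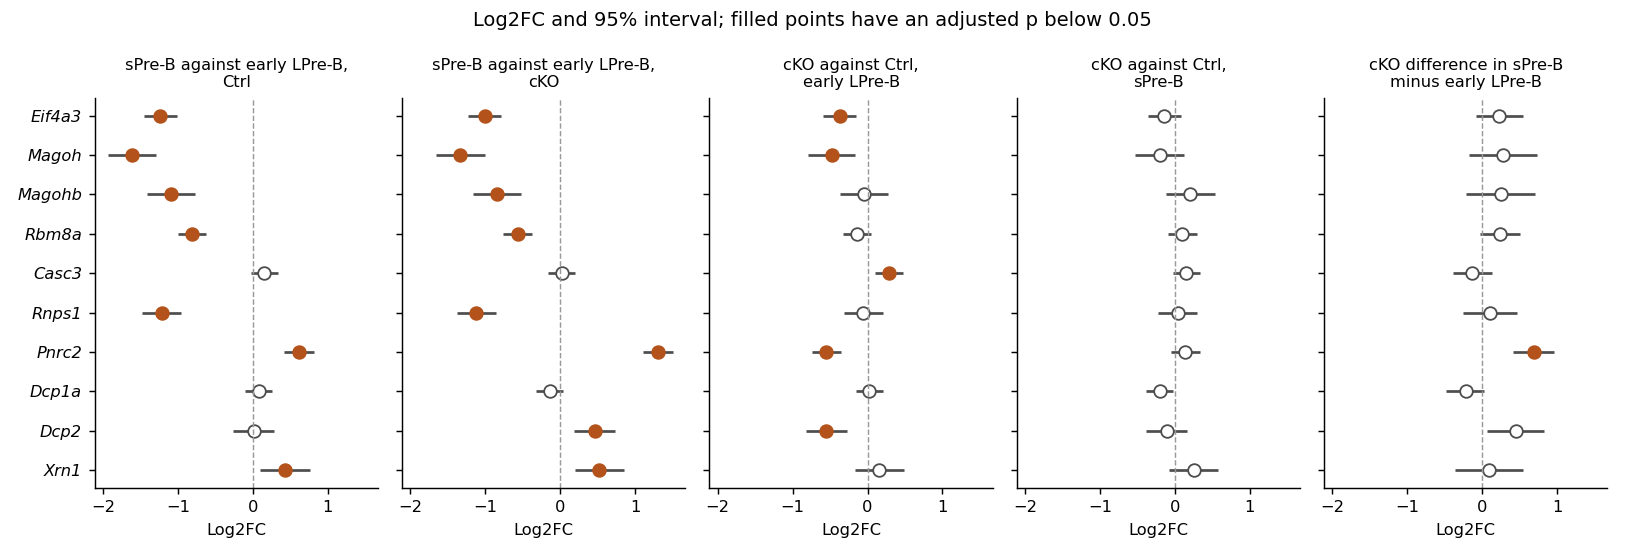
Log2FC (horizontal axes) with its 95% interval for the 10 genes in the 4 comparisons between groups and in the difference of the cKO difference between stages, with filled points at an adjusted P under 0.05. Filled points number 7 and 8 in the stage comparisons, 5 in early LPre-B cells, 0 in sPre-B cells and 1, *Pnrc2*, in the rightmost panel.

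The difference between the 2 cKO-against-Ctrl contrasts was tested by the interaction of stage and genotype. *Pnrc2* was the 1 member called, with 0.69 (SE 0.12, 95% interval 0.41 to 0.96, adjusted P = 0.0228), and 0 members were called lower, against 2.64% higher and 1.6% lower of all genes tested. It was lower with the cKO label by 0.55 in early LPre-B cells, and its Log2FC was 0.14 (SE 0.09, adjusted P = 0.238) in sPre-B cells. The interaction was also called by DESeq2 (0.65, adjusted P = 0.000401). Of the 8 fits without 1 library, only that without Ctrl sPre-B replicate 1 kept the call (0.72, adjusted P = 0.0299), and the other 7 gave 0.56 to 0.73 with adjusted P from 0.0522 to 0.102. Without both Ctrl libraries numbered 2 it was 0.51 (adjusted P = 0.152). *Dcp2* gave 0.45 (SE 0.17, 95% interval 0.07 to 0.83) with an unadjusted P of 0.0265 and an adjusted P of 0.176. The remaining 8 members lay between −0.22 (*Dcp1a*) and 0.28 (*Magoh*) with adjusted P from 0.287 to 0.843.

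**Figure D3:**
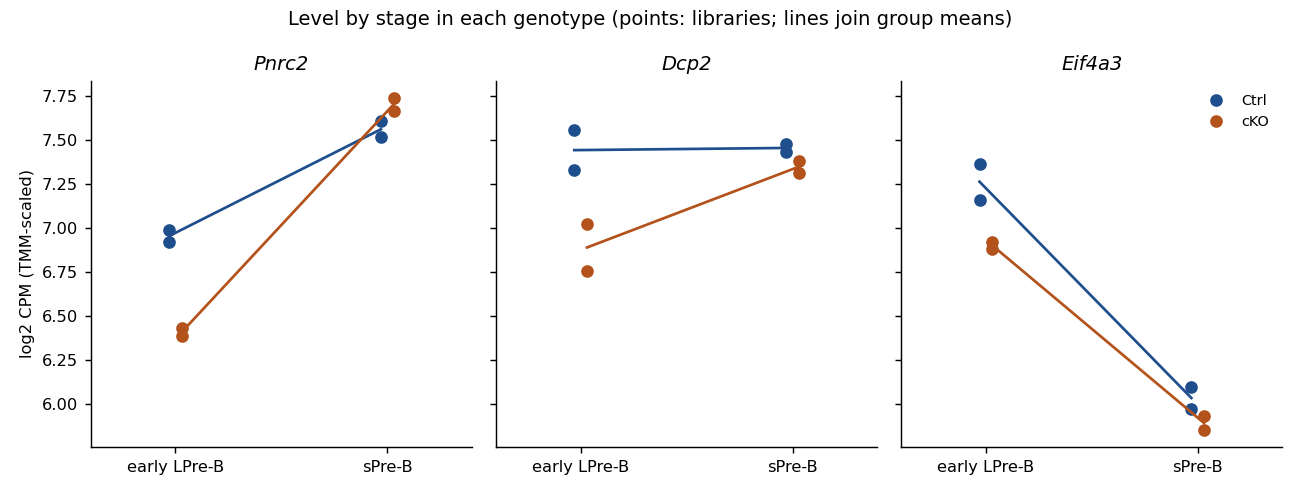
Level of *Pnrc2*, *Dcp2* and *Eif4a3* in log2 CPM (vertical axis, not starting at 0) by stage, with a point per library and lines joining the group means of Ctrl and cKO. The lines of *Pnrc2* cross between the stages, those of *Dcp2* approach each other in sPre-B cells, and those of *Eif4a3* both fall.

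To compare levels between genes, CPM were divided by the kilobases of exon annotated for each gene. The exons of all its transcripts in the basic annotation were joined for this. For *Xrn1* they make 10481 bases, while its main transcript has 5499. Its place in the order below thus depends on the length used, and main transcript lengths were not tried. In Ctrl early LPre-B cells *Rnps1* (106 to 124 CPM per kilobase) and *Eif4a3* (95 to 110) stood highest and overlapped, followed by *Magoh* (68.5 to 84.0) and *Pnrc2* (63.0 to 66.1). *Casc3* (25.3 to 25.6), *Rbm8a* (22.5 to 24.7), *Dcp2* (18.5 to 21.6), *Dcp1a* (17.0 to 17.1), *Xrn1* (8.19 to 10.5) and *Magohb* (6.22 to 6.33) came after, with no overlap between neighbours. In Ctrl sPre-B cells *Pnrc2* was first per kilobase (95.5 to 102), ahead of *Rnps1* (48.0 to 50.8) and *Eif4a3* (41.5 to 45.4), and *Casc3* (27.3 to 29.2) and *Magoh* (22.0 to 27.8) overlapped. The same 3 genes led in sPre-B cells labelled cKO, with *Pnrc2* at 106 to 112, *Rnps1* at 47.6 to 54.0 and *Eif4a3* at 38.2 to 40.4 CPM per kilobase. There *Pnrc2* was highest, but in early LPre-B cells of that label it stood at 43.5 to 44.9, below *Magoh* at 54.2 to 54.7. *Magohb* was the lowest in all 4 groups.

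The balance within the *Magoh* and *Magohb* pair was read as the share of their summed counts. *Magohb* took 12.1% and 14.7% of the pair's counts in Ctrl early LPre-B cells, with 95% Wilson intervals of 11.5 to 12.8% and 13.7 to 15.8%. Its share was 16.7% and 19.7% in Ctrl sPre-B cells (15.1 to 18.4% and 17.7 to 21.9%). In early LPre-B cells labelled cKO it was 17.1% and 17.2% (16.1 to 18.2% and 16.2 to 18.2%). The highest shares, 23.5% and 21.6%, were in sPre-B cells labelled cKO (21.6 to 25.6% and 20 to 23.3%). The Ctrl early LPre-B libraries thus lay below the other 6 and the sPre-B libraries labelled cKO above them, but the 2 Ctrl libraries of each stage differed from one another by about as much as some groups did. The intervals cover counting error only, and with 2 libraries a group no test over libraries was run on the share.

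**Figure D4:**
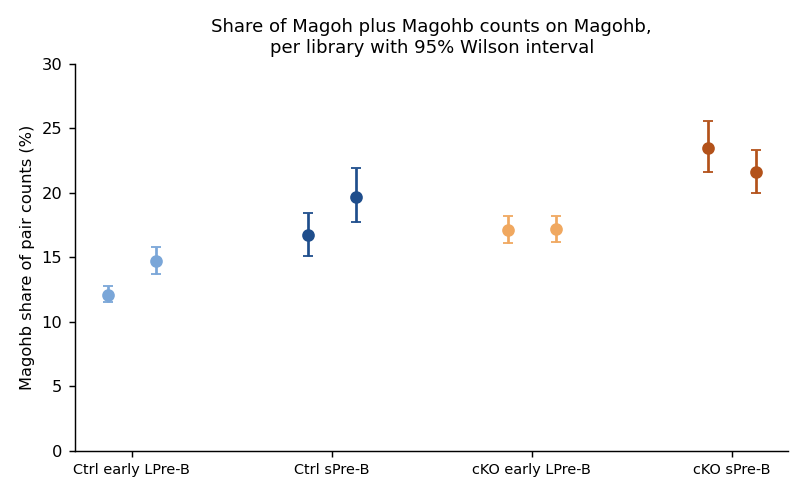
Share of the counts of *Magoh* and *Magohb* that fell on *Magohb* (percent, axis from 0) in each of the 8 libraries, with 95% Wilson intervals for counting error. The lowest pair, Ctrl early LPre-B, lies at 12.1% and 14.7%, and the highest, sPre-B labelled cKO, at 23.5% and 21.6%.

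The 3 genes whose levels over the 8 libraries ran closest to those of *Magoh*, by the root mean squared difference of centred log2 CPM, were *Calm3* (0.068), a calmodulin gene, *Erh* (0.076) and *Atp5g3* (0.08), which encodes a subunit of the mitochondrial ATP synthase. *Erh* held 138 and 107 CPM (Ctrl) and 95.2 and 94.8 CPM (cKO) in early LPre-B libraries, and 44.8 and 37.9 CPM (Ctrl) and 32.2 and 34.2 CPM (cKO) in sPre-B libraries.

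Other genes of the same steps were counted by list, to be read against all genes tested, of which 31.1% were lower and 29.1% higher in Ctrl sPre-B than early LPre-B cells and 31.1% and 31.6% in cKO. Of 8 genes of the peripheral EJC and its assembly, 5 were lower and 0 higher in Ctrl sPre-B cells (median Log2FC −0.52), and 5 were lower and 1 higher in cKO (−0.47). The Ctrl counts moved to 4 lower and 2 higher with library totals in place of TMM factors, and 1 was higher with median-ratio factors or without Ctrl early LPre-B replicate 1. Among them *Alyref*, an mRNA export adaptor, fell by 2.04 in Ctrl and fell by 1.65 in cKO, and *Sap18*, a partner of RNPS1, fell by 0.72 and fell by 0.61. Between the genotypes 1 of the 8 was higher with the cKO label and 1 lower in early LPre-B cells, shares near the 14.5% higher and 16.9% lower of all genes. In sPre-B cells 4 of the 8 were higher, against 19.8% of all genes, and 1 lower, against 14.9%. The 4 fell to 1 or 2 in each fit without 1 sPre-B library. *Ddx39b*, an RNA helicase of the export pathway, rose by 0.47 and 0.78 in the 2 stages.

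Of 19 decapping cofactors, 10 were lower and 2 higher in Ctrl sPre-B cells (median −0.29), and 10 were lower and 4 higher in cKO (−0.33). With library totals in place of TMM factors the Ctrl counts were 8 lower and 6 higher. The genes called at the lowest adjusted P encode LSM proteins, which form a ring that binds the ends of deadenylated mRNAs. *Lsm2* fell by 2.04 in Ctrl and fell by 1.79 in cKO, and *Lsm3* fell by 1.42 and fell by 1.44. *Dcp2* and *Pnrc2*, in contrast, were not called lower in sPre-B cells of either genotype. Against Ctrl, 3 cofactors were higher and 3 lower in early LPre-B cells (median −0.07), 15.8% each way and so near the shares of all genes. In sPre-B cells 3 were higher and 2 lower (median 0.06), or 15.8% and 10.5%, both below the shares of all genes. Library totals gave 6 higher and 1 lower in early LPre-B and 5 higher and 1 lower in sPre-B cells. *Patl1*, a scaffold that joins the LSM ring to DCP2, rose by 0.86 and 0.78, and *Xrn2*, the nuclear relative of *Xrn1*, rose by 0.56 (SE 0.10, adjusted P = 0.00463) and 0.98 (SE 0.11, adjusted P = 0.00027). *Xrn1* had a Log2FC of 0.15 and 0.25 in the same comparisons and was not called.

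Genes that shorten the poly(A) tail before decapping moved both ways. Of 19, 7 were higher and 6 lower in Ctrl sPre-B cells (median 0.06), and 7 were higher and 4 lower in cKO (0.18). *Btg1* and *Btg2*, which recruit the CCR4-NOT deadenylase, rose by 2.48 and 2.40 in Ctrl, and *Cnot9*, a subunit of that complex, fell by 2.16. In early LPre-B cells labelled cKO 2 were higher (10.5%, against 14.5% of all genes) and 6 lower (31.6%, against 16.9%), with a median of −0.17. In sPre-B cells 4 were higher and 4 lower (median 0.05), 21.1% each way against 19.8% and 14.9%. Library totals gave 6 higher and 5 lower in early LPre-B cells, and 2 were higher in each fit without 1 sPre-B library. Of 18 genes of the 3′-to-5′ exosome and SKI complexes, 14 were lower and 1 higher in Ctrl sPre-B cells (median −0.58), and 13 were lower and 2 higher in cKO (−0.55). Against Ctrl, 6 exosome and SKI genes were higher and 0 lower in cKO early LPre-B cells (33.3% and 0%, median 0.17), and 8 were higher and 1 lower in sPre-B cells (44.4% and 5.56%, median 0.25). With library totals the split was 11 lower and 3 higher between the Ctrl stages and 10 were higher in cKO early LPre-B cells, and without cKO sPre-B replicate 2, 5 were higher in sPre-B cells. *Dis3*, the catalytic exosome subunit, rose by 0.82 and 1.45.

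Of the 10 core NMD factors, 2 were higher and 0 lower in Ctrl sPre-B cells (median 0.13), and 0 were higher and 3 lower in cKO (−0.14). Library totals gave 6 higher in Ctrl sPre-B cells, and 1 was higher without the expression filter, from only the 4 libraries compared or without Ctrl sPre-B replicate 2. By genotype, 7 were higher and 0 lower in cKO early LPre-B cells (median 0.56), against 14.5% higher and 16.9% lower of all genes. In sPre-B cells 6 were higher and 1 lower (median 0.38), against 19.8% and 14.9%. The list includes *Upf1*, the targeted gene, which was 1 of these 6 (0.59, adjusted P = 0.00245). Without it, 7 of 9 were higher in early LPre-B cells (median 0.58), and 5 were higher and 1 lower in sPre-B cells (0.35). The 6 fell to 2 without Ctrl sPre-B replicate 1 or cKO sPre-B replicate 2. *Smg5*, which binds phosphorylated UPF1, rose by 1.06 and 0.57. Beside these, the medians of the 10 EJC, decapping and 5′ decay genes with the cKO label were −0.10 and 0.07, and those over all genes −0.06 and 0.01. In the interaction 0 of the peripheral EJC, decapping cofactor and deadenylation genes were called by edgeR's quasi-likelihood test, with 0, 3 and 2 at an unadjusted P under 0.05, while 1 exosome gene (*Dis3*, 0.63) was higher and 2 NMD factors (*Smg9*, −0.99, and *Smg6*, −0.71) were lower. Of all genes tested 2.64% were higher and 1.6% lower in the interaction, shares at which 0 or 1 called gene in lists of 8 to 19 is no result about a list. DESeq2 and the likelihood-ratio test each called 2 deadenylation genes higher. The exosome call was lost in 7 of the 8 fits without 1 library, and the NMD factors called lower numbered 0 without cKO early LPre-B replicate 1. The lists were set by function and received no test of their own.

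**Figure D5:**
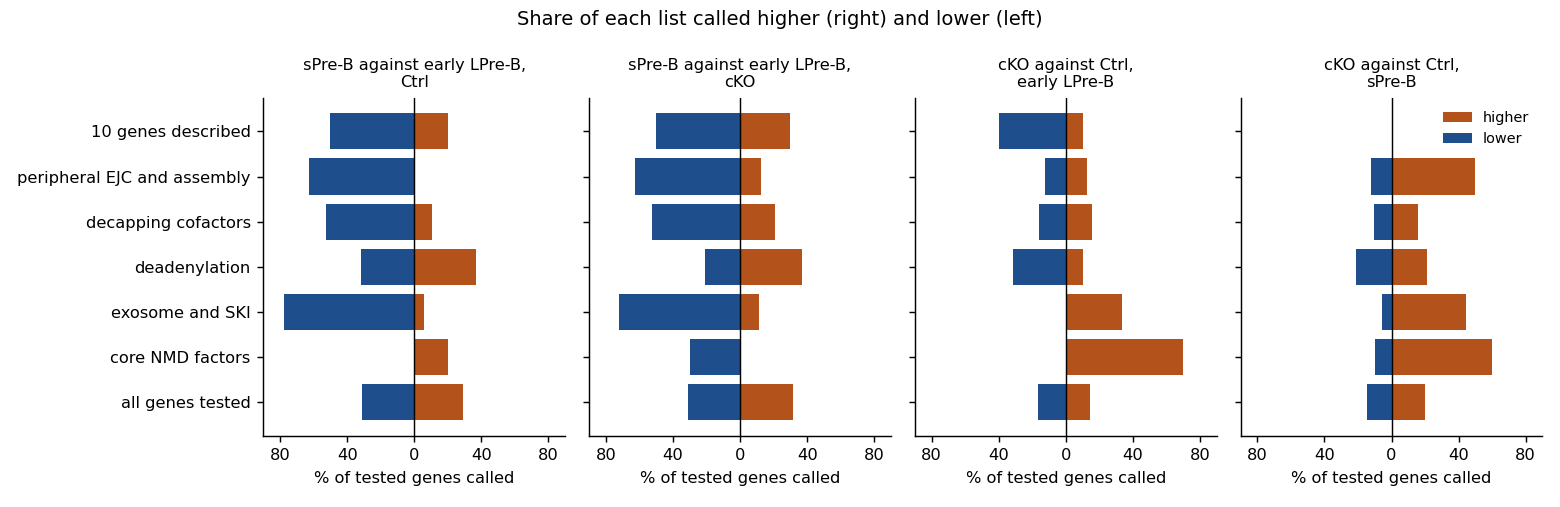
Share of each list called higher (to the right) or lower (to the left) at an adjusted P under 0.05, in percent of the genes tested, in the 4 comparisons between groups, with all 17700 genes in the bottom row. The 10 genes described have no bar in sPre-B cells, where 19.8% of all genes are higher and 14.9% lower with the cKO label.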

How the data were processed

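RNA of sorted early LPre-B and sPre-B cells was analysed in 8 libraries, 2 per group, after depletion of ribosomal RNA. Reads were trimmed (Trim Galore) and aligned to mm10 (HISAT2, paired, unstranded) by the authors, who deposited raw counts per gene from featureCounts, without normalization. How reads matching several places were counted is not given in the sources used here. Genes are listed by Entrez identifier, and 25275 of 27179 were named from RefSeq.

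The counts were fitted in edgeR 4.0.16 (R 4.3.3) with TMM factors of 0.862 to 1.09. The 17700 genes kept by filterByExpr entered a single fit with 4 group means, whose common biological coefficient of variation came to 0.174. The 4 comparisons and the interaction used edgeR's quasi-likelihood F test, two-sided, adjusted by Benjamini-Hochberg. The script was tested on simulated data. Alternatives were DESeq2 1.42.0, the likelihood-ratio test, median-ratio factors, no filter, a replicate block, only the 4 libraries compared, leaving out libraries and, added after seeing the data, library totals without TMM factors.

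The members, gene lists and tests were chosen with earlier results of these data known. Named were the 10 members, *Upf1* and *Cd79a*, up to 3 called genes with the lowest adjusted P per list and comparison, near copies and overlapping genes, and the 3 genes whose pattern was most like that of the member with the widest span.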

Additional observations from a re-analysis of the deposited data

Results flagged for a closer look

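*Pnrc2* differed between early LPre-B and sPre-B cells in its cKO-against-Ctrl contrast, by 0.69 on the log2 scale (SE 0.12, adjusted P = 0.0228, edgeR's test of the interaction). Both early LPre-B libraries labelled cKO, at 83.6 and 86.2 CPM, lay below the Ctrl libraries at 121 and 127 CPM, and both sPre-B libraries labelled cKO, at 203 and 214 CPM, lay above the Ctrl libraries at 195 and 183 CPM. The difference within sPre-B cells was not called (0.14, adjusted P = 0.238). Of the 8 fits without 1 library, 7 lost the call of the interaction, with adjusted P from 0.0522 to 0.102, and without both Ctrl libraries numbered 2 it was 0.51 (adjusted P = 0.152).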

How the results depend on the processing

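Over the 10 genes and 5 comparisons, 324 of 340 results kept direction and call in the 7 alternatives with all libraries of the groups compared, and 406 of 450 in the 9 with fewer libraries. Outside the interaction, some of these 9 leave out only libraries of groups not compared. Such libraries enter only through the shared scaling and spread, so that little could change there. With total counts only, added after seeing the data, the median of all genes moved to 0.22, 0.13, 0.11, 0.07 and −0.04 (from 0.02, 0.05, −0.06, 0.01 and 0.07, in the order of the report). Members higher in Ctrl sPre-B cells then numbered 4, with *Casc3* and *Dcp1a* added, and members lower with the cKO label in early LPre-B cells 1, *Pnrc2*, against 4. In early LPre-B cells 0 members were higher without a filter (*Casc3*, 0.29, adjusted P = 0.0507), and *Eif4a3* was not called from only the 4 libraries compared (−0.3, adjusted P = 0.0663). In sPre-B cells 1 was lower with median-ratio factors (*Dcp1a*, −0.24, adjusted P = 0.0435). The cause was not tested.

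Without 1 library, or without both Ctrl libraries numbered 2, members higher were 1 to 2 in Ctrl sPre-B against early LPre-B cells and 1 to 3 in cKO. With the cKO label in early LPre-B cells 0 to 1 were higher and 1 to 4 lower, in sPre-B cells 0 to 1 were lower, and in the interaction 0 to 1 were higher. These fits assume that a lone library varies like the other groups.

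Direction turned for members that were not called. Between genotypes in early LPre-B cells, total counts gave 0.12 for *Magohb*, 0.03 for *Rbm8a* and 0.12 for *Rnps1*, and the 4 libraries compared gave 0.02 for *Magohb* and 0.01 for *Rnps1*. The 4 libraries compared gave −0.02 for *Casc3* between the cKO stages, and total counts gave −0.02 for *Rnps1* and −0.01 for *Xrn1* in the interaction. Leaving out libraries gave −0.04 to 0.22 for *Dcp2* between the Ctrl stages and −0.02 to 0.06 for *Casc3* between the cKO stages. Between genotypes in early LPre-B cells it gave −0.06 to 0.02 for *Magohb*, −0.12 to 0.10 for *Rnps1*, −0.03 to 0.07 for *Dcp1a* and 0 (below 0 before rounding) to 0.39 for *Xrn1*, and in sPre-B cells −0.05 to 0.13 for *Rnps1*. In the interaction it gave −0.10 to 0.18 for *Rnps1* and −0.19 to 0.25 for *Xrn1*.

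A block for the replicate number changed no call of a member: *Pnrc2* had an interaction of 0.69 (adjusted P = 0.0223), and 5, 5, 4, 0 and 0 members were lower and 2, 3, 1, 0 and 1 higher. Same-numbered libraries correlated in their deviations at 0.395, 0.254, 0.155 and 0.0858 over 2 pairs each. In Ctrl the number goes with sex at both stages, the pair with 0.395, but the labels tie no number to a mouse, so the numbers were not taken to pair the libraries. Over all genes the interaction called 467 higher and 283 lower, but 1004 and 504 by the likelihood-ratio test, 1078 and 497 without a filter, 1037 and 721 by DESeq2, 462 lower with total counts, and 48 to 657 and 28 to 245 with fewer libraries. In early LPre-B cells labelled cKO 2983 genes were lower, but 1677 with total counts, and 1327 to 2961 lower and 1648 to 2521 higher with fewer libraries, and in sPre-B cells 1390 to 3263 and 2283 to 3408. Of 790 list counts, 96 moved by over 1.5 times, and some of these are given in the report.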
